A study of Mus musculus with 6 samples.

Results

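Voltage-gated sodium and calcium channel genes and potassium channel genes were followed through a comparison of sorted mouse cells. The members were the probe sets, groups of short oligonucleotides that report a transcript, whose gene name in the authors' comparison table begins with Kcn, Scn plus a number, Cacna, Cacnb or Hcn plus a number. A locus that the rule sets aside was not analysed here. This gave 42 probe sets of 31 genes, out of 22526 non-control probe sets of 12263 named genes in that table. Within that table the name alone chose them. The table itself holds 22526 of the 45037 non-control probe sets with values, all with a flag score, described below, of 2 or more. Probe sets named Hcn, for the pacemaker channels, numbered 0 in that table, and those outside it were not read.

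The cells were CGR8 mouse embryonic stem cells that had differentiated for 5 days in embryoid bodies, aggregates in which the germ layers form. They were sorted for the chemokine receptor CXCR4 and for FLK-1, the product of Kdr. The series holds 3 samples that carried both proteins (double positive) and 3 that carried neither (double negative), each on its own Affymetrix mouse array. The labels name no genotype change and no agent, and both groups came from the same cell line. The labels call the samples of a group biological replicates, collected independently, but also speak of RNA pools without saying what was pooled. The sort gates alone define both groups. Each value is a ratio to the median of the 3 double-negative arrays for the same probe set, so 1 is that median. Ratios compare arrays and say nothing of how abundant one channel transcript was against another.

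Ion channels of these families set the membrane voltage and let it change quickly. Sodium and calcium channels are built on 1 large pore-forming alpha subunit joined by smaller auxiliary subunits, and they open when the membrane depolarises. Potassium channels form the most varied family, with members that open on voltage, on intracellular calcium, on G-protein signals or at rest, and their current brings the membrane back to a negative potential. In the early heart such channels carry the first spontaneous beats, while many of the same families are best known from neurons. In bulk samples such as these, fewer cells of a type and less RNA per cell cannot be told apart.

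Transcripts of both sorted proteins were higher on the double-positive arrays. Cxcr4 differed by 2.47 on the log2 scale (SE 0.419, n = 3 per group) and Kdr by 2.62 (SE 0.663), and the groups did not overlap for either gene. Over all probe sets their adjusted p-values were 0.342 and 0.664 (limma moderated test, Benjamini-Hochberg). The 2 replicate 1 arrays stood apart from the rest: the median log2 ratio over all probe sets tested was -0.41 on double-positive and -0.33 on double-negative replicate 1, against 0 to 0.11 on the other 4. The medians of the channel probe sets did not show that shift, at -0.06 and 0 on the replicate 1 arrays and -0.06 to 0.19 on the others. Single channel probe sets were still low there. Ratios below 0.5 made up 26.2% of them on double-positive replicate 1 (22.3% of all probe sets). On double-negative replicate 1 they made up 14.3% (21.1% of all). Among the channel probe sets, 13 of 42 (31%) had their lowest value of each group in replicate 1, against 50.9% of all probe sets. Counts are therefore also given without both replicate 1 arrays.

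As a family, the channels were not shifted to either side. The median log2 difference, double positive minus double negative, was 0.08 over the 42 probe sets and 0.02 over all probe sets tested. Of the 42, 23 were higher and 19 lower in the mean, and 27 differed by less than 0.5 on the log2 scale (64.3%, against 73% of all). The tails were uneven, over all probe sets as well. Below -0.5 lay 9 channel probe sets and above 0.5 lay 6, against 3490 and 2587 of all. Of the 9 probe sets that differed more than 2-fold, 8 were lower in double-positive cells. They belonged to the sodium channel genes Scn9a (2 probe sets), Scn7a and Scn3b, the calcium channel gene Cacna1b and the potassium channel genes Kcnj3 (2 probe sets) and Kcna1. Differences of that size made up 21.4% of the channel probe sets and 7.18% of all. Of those 9, 7 had a flag score of only 2 or 3. At those scores, differences of more than 2-fold made up 41.2% of the channel probe sets and 17.7% of all. The flag score is a whole number from 2 to 6 that the authors' deposited table calls a flag pass value, whose definition is not stated and which is read here as a count of arrays with detection.

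No channel probe set passed the adjusted threshold of 0.05 (limma moderated test), nor did any of the 22526 (0%). The smallest adjusted p was 0.443 among the channels and 0.271 over all probe sets. At an unadjusted p under 0.05 there were 5 channel probe sets, or 11.9% of the 42, where the share over all probe sets was 4.87%. All 5 were lower in double-positive cells, a direction that held 3.49% of all probe sets at this threshold, while 0 were higher against 1.38% of all. Of the 5, 2 report the same gene, Scn9a. With the replicate number as a block the count was 7, with Scn4a (higher) and Kcnn3 (lower) added, while the share of all probe sets was 12.3% and again 0 passed after adjustment. Without both replicate 1 arrays it was 8, of which 3 were higher, against 9.31% of all.

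The groups did not overlap for 5 channel probe sets (11.9%, against 9.99% of all). Of these, 3 were lower in double-positive cells (5.38% of all probe sets were) and 2 were higher (4.61% of all). The lower ones were 1 probe set each of Scn9a, Kcnj3 and Kcna1, and the higher ones were 1 of Kcnj3 and 1 of Cacna2d2. Those 5 probe sets are also the ones with p-values under 0.05 in the authors' deposited table, where such p-values were given to 3.33% of all probe sets, 1.35% higher and 1.98% lower. Counted by replicate number, 8 channel probe sets were lower in all 3 pairs (19%, against 17.7% of all) and 9 were higher (21.4%, against 21.5%). The spread between arrays of a group was also ordinary, with a median SD of 0.524 on the log2 scale for the channels and 0.519 for all probe sets.

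**Figure D1:**
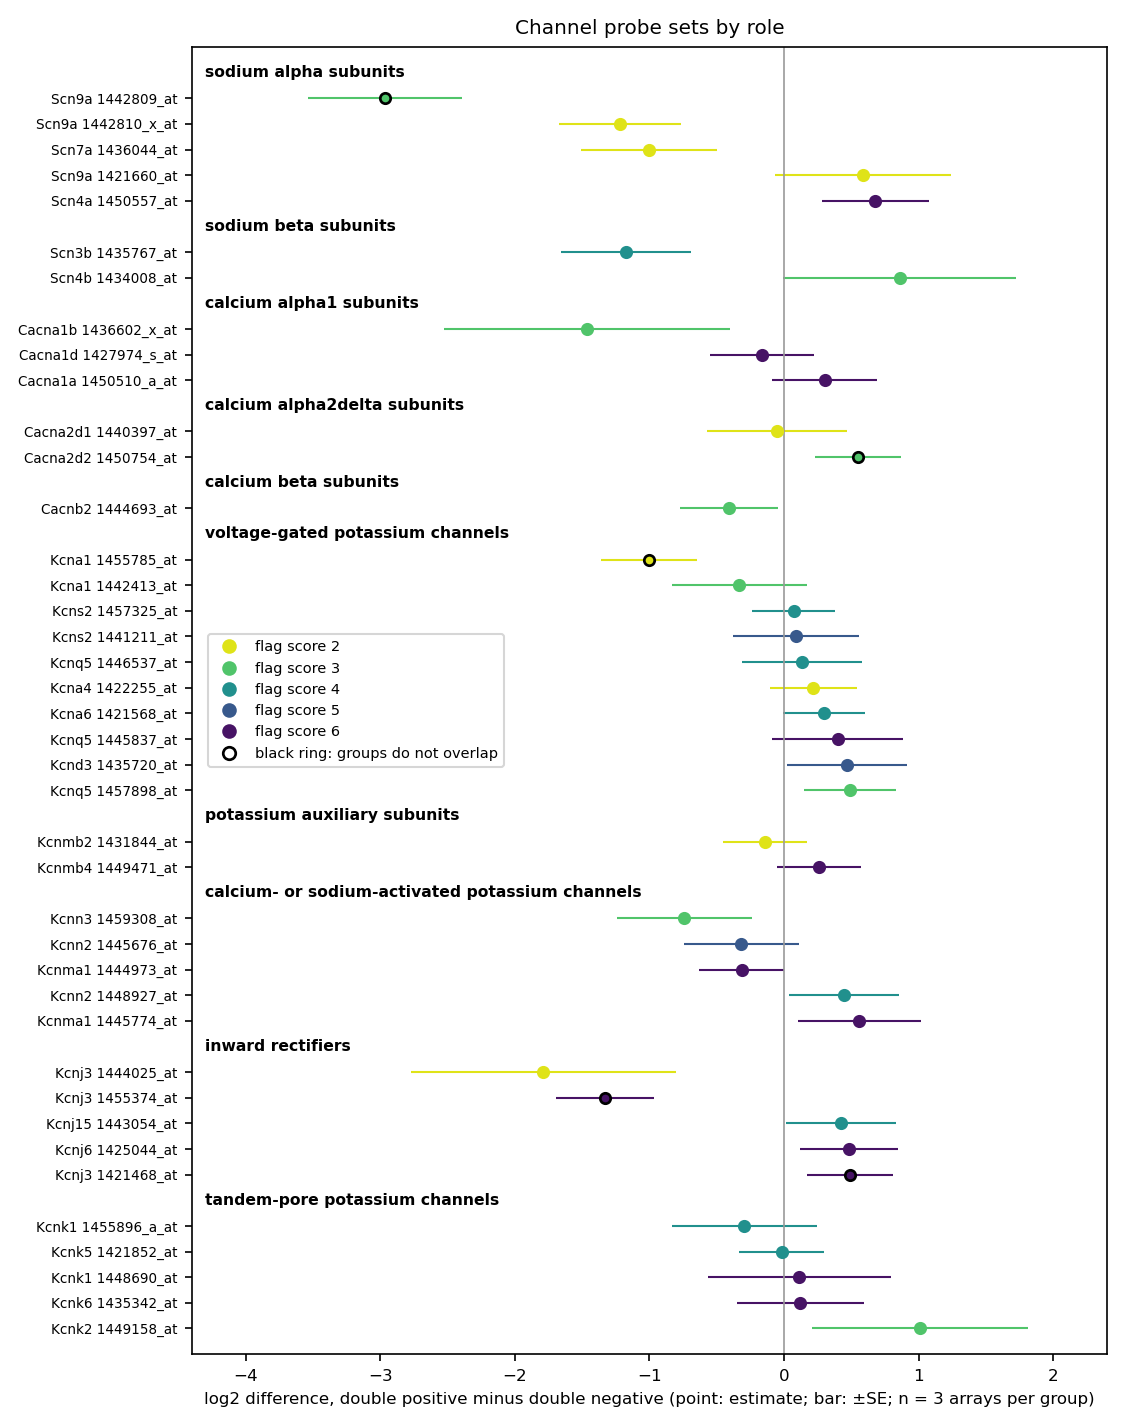
Log2 difference between double-positive and double-negative cells for 40 of the 42 channel probe sets, grouped by role, with bars of 1 SE either side and colour by flag score. Most points lie within 0.5 of 0, and the 8 points more than 2-fold lower are 2 each of Scn9a and Kcnj3 and 1 each of Cacna1b, Scn3b, Scn7a and Kcna1.

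Sodium channel alpha subunits held the largest difference of the family. Scn9a encodes a sodium channel best known from pain-sensing neurons of the dorsal root ganglia. Its probe set 1442809_at stood at ratios of 0.0687, 0.105 and 0.315 on double-positive replicates 1 to 3 and at 0.753, 1 and 1.43 on the double-negative ones. Every double-positive value lay below every double-negative one. The difference was -2.96 on the log2 scale (SE 0.573, n = 3 per group), or 7.80-fold lower with a 95% confidence interval of 3.14 to 19.4, and its adjusted p was 0.443. It was lower in 3 of 3 pairs and ran from -3.59 to -2.49 when each array was left out in turn. The flag score was 3, and with a pseudocount of 0.5, which weighs down low ratios, the difference was -1.23.

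A second Scn9a probe set, 1442810_x_at, gave 0.317, 0.353 and 0.609 against 0.572, 1 and 1.493. Here double-positive replicate 3 lay just above double-negative replicate 1, so the groups overlapped. The difference was -1.22 (SE 0.453, adjusted p = 0.945 by limma), with a flag score of 2. The suffix x in Affymetrix identifiers marks probes that may bind unrelated transcripts. The remaining one, 1421660_at, read 2.515, 1.069 and 1.748 against 2.93, 1 and 0.473, a difference of 0.59 (SE 0.656) with a flag score of 2. It was high on both replicate 1 arrays and did not separate the groups.

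Scn7a encodes a channel of the sodium channel family that senses extracellular sodium, and in the RefSeq gene order it stands next to Scn9a. Its probe set gave 0.394, 0.837 and 0.28 against 1, 0.561 and 1.327. Replicates 1 and 3 were lower in double-positive cells and replicate 2 was higher, and the difference was -1.0 (SE 0.506, adjusted p = 1 by limma) with a flag score of 2. Scn4a, the sodium channel of skeletal muscle, lay on the other side with a flag score of 6. It read 2.513, 1.337 and 1.842 against 1.68, 0.897 and 1, higher in 3 of 3 pairs while the groups overlapped. The difference was 0.68 (SE 0.397, adjusted p = 1 by limma). With the replicate block its SE was 0.197 and it came to an unadjusted p under 0.05, with an adjusted p of 0.332 by limma.

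The start regions of the neighbours Scn9a and Scn7a and of Kcnj3 are shown because Scn9a and Kcnj3 hold the largest differences without overlap and Scn7a is the neighbour of Scn9a. Each is a window of 300 bases, 250 before and 50 after the gene's start in RefSeq (GRCm38.p6), printed 5′ to 3′ on the gene's strand, with Scn9a at chr2:66634913-66635212 (minus), Scn7a at chr2:66784861-66785160 (minus) and Kcnj3 at chr2:55435720-55436019 (plus). Capitals mark GGGCGG, the GC box, and CCAAT, the CCAAT box, found on either strand.
Scn9a: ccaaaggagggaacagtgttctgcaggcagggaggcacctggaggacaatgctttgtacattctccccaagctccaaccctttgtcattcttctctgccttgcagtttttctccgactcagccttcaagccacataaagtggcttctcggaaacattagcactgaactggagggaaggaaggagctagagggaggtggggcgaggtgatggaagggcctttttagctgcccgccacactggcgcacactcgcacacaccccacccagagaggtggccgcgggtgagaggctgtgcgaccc
Scn7a: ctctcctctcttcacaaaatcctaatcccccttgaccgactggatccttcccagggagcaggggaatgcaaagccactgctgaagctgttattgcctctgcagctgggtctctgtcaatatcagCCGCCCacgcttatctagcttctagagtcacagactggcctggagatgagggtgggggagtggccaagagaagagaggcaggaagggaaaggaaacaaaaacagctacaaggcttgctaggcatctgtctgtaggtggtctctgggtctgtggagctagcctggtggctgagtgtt
Kcnj3: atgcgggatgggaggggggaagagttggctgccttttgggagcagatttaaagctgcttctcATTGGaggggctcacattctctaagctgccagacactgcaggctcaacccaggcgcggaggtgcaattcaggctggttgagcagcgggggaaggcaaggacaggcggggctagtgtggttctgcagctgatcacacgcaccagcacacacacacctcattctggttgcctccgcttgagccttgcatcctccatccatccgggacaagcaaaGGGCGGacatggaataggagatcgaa

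Of the 31 channel genes, 23 had such windows, 30 in all. GGGCGG was in 13 of these (43.3%, against 35.7% of all 32851 windows) and CCAAT in 7 (23.3%, against 37.4%). TATAAA, the TATA box, was in 2 (6.67%, against 13.6%). TTCAGCACC, part of the element bound by the neuronal silencer REST, was in 0 of the 30 and in 0.371% of all windows. No match overlapped another in the 3 windows printed. The windows of channel genes were richer in G and C, with a median of 62.8% against 52.7%, and in CpG, with a median observed over expected ratio of 0.586 against 0.384. That ratio was 0.366 for Scn9a, 0.139 for Scn7a and 0.408 for Kcnj3, below the median of the channel windows in each case.

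Sodium channel beta subunits, which tune the gating and surface level of the alpha subunits, differed between members. Scn3b gave 0.204, 0.563 and 0.369 against 0.479, 1 and 1.019 with a flag score of 4. It was lower in 3 of 3 pairs, although double-positive replicate 2 exceeded double-negative replicate 1. The difference was -1.18 (SE 0.485, adjusted p = 0.983 by limma), and -1.15 without both replicate 1 arrays. Scn4b was at 0.86 (SE 0.866) only because double-negative replicate 1 read 0.111, and without that array it was at -0.30. Scn2b, a member of the same group listed under a synonym and so outside the rule, had probe sets at 0.84 (SE 0.496, flag score 2) and -0.84 (SE 0.421, flag score 6).

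Among the calcium channel pore subunits the probe sets were spread around 0. Cacna1b, the channel of N-type currents at nerve terminals, was at -1.46 (SE 1.06, flag score 3) in a probe set with the suffix x. Its values were 0.049, 0.795 and 1.25 against 1.172, 1 and 0.874. The single low array, double-positive replicate 1, carried the whole difference, which was -0.02 without it. Cacna1d, an L-type channel that contributes to pacemaking in the sinoatrial node, was at -0.16 (SE 0.388) and Cacna1a, the channel of P/Q-type currents, at 0.30 (SE 0.391), both with a flag score of 6. The Cacna1d difference turned to 0.09 without double-positive replicate 1.

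Auxiliary calcium channel subunits included 1 probe set without overlap. Cacna2d2, an extracellular alpha2delta subunit that raises the number of channels at the surface, gave 1.783, 1.476 and 1.383 against 0.91, 1.271 and 1. It was higher in 3 of 3 pairs, by 0.55 (SE 0.319, adjusted p = 1 by limma), with a flag score of 3. Its relative Cacna2d1 was at -0.05 (SE 0.52, flag score 2). Leaving out single arrays moved that value between -0.59 and 0.42. Cacnb2, the main intracellular beta subunit of the cardiac L-type channel, was at -0.41 (SE 0.365, flag score 3), with values of 0.881, 0.572 and 1.11 against 1, 1.321 and 0.987.

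Voltage-gated potassium channels formed the largest group, with 12 probe sets of 8 genes, with a median of 0.11 and 9 of 12 means above 0. Kcna1, a channel that limits firing in axons, lay furthest below 0. Its probe set 1455785_at gave 0.434, 0.662 and 0.35 against 1.02, 1 and 0.794, with every double-positive value below every double-negative one. The difference was -1.0 (SE 0.357, adjusted p = 0.907 by limma) with a flag score of 2. The other Kcna1 probe set, 1442413_at, was at -0.33 (SE 0.5, flag score 3), and its double-positive values ran from 0.36 to 1.321. Kcna6, its neighbour in the RefSeq gene order, was at 0.30 (SE 0.304).

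The channels of the M-current and of the transient outward current were slightly higher in the mean. Kcnq5, which contributes to the M-current that damps neuronal firing, had 3 probe sets at 0.40, 0.13 and 0.49, the SE being 0.339 to 0.485. The 1 with a flag score of 6 read 1.361, 0.702 and 1.392 against 1, 1.281 and 0.454. Kcnd3, which carries transient outward current in the heart, gave 0.669, 1.661 and 1.406 against 0.577, 1.019 and 1. Within each of the 3 pairs the double-positive value was the higher, by 0.47 in the mean (SE 0.447, flag score 5), but the pair of replicate 1 lay below all others, so the groups overlapped. Without both replicate 1 arrays it was 0.60 (adjusted p = 0.5 by limma). Kcna4 was at 0.22 (SE 0.325), and the modulatory subunit gene Kcns2 had probe sets at 0.09 and 0.07.

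Potassium channels opened by calcium were split between probe sets. Kcnma1, the large-conductance channel, had 1 probe set at -0.31 (SE 0.315) and 1 at 0.56 (SE 0.458), both with a flag score of 6. The higher one read 2.028, 0.894 and 1.383 against 1, 0.568 and 1.378. For the small-conductance channel Kcnn2 the values were -0.32 (SE 0.427) and 0.45 (SE 0.408). Its relative Kcnn3 was lower in 3 of 3 pairs, at -0.74 (SE 0.5, adjusted p = 1 by limma, flag score 3). With the replicate block its SE was 0.246 and it too came to an unadjusted p under 0.05 (adjusted p = 0.373 by limma). The beta subunits of the large-conductance channel, Kcnmb2 and Kcnmb4, were at -0.14 (SE 0.313) and 0.26 (SE 0.314).

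Among the inward rectifiers, probe sets of Kcnj3 without overlap pointed in opposite directions. Kcnj3 encodes a G-protein-gated subunit that, with Kcnj5, forms the acetylcholine-activated channel of the atria. Probe set 1455374_at, with a flag score of 6, gave 0.41, 0.369 and 0.459 against 0.741, 1 and 1.488. The double-positive values were close to each other and all below the double-negative ones. The difference was -1.33 (SE 0.362, n = 3 per group), or 2.51-fold lower with a 95% confidence interval of 1.41 to 4.47, and the adjusted p was 0.672. It stayed between -1.57 and -1.07 when each array was left out in turn.

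A second Kcnj3 probe set with a flag score of 6, 1421468_at, pointed the other way. It gave 1.683, 1.239 and 1.358 against 1.158, 1 and 0.88, and here every double-positive value was the higher. The difference was 0.49 (SE 0.317, adjusted p = 1 by limma). The third, 1444025_at, had a flag score of 2 and gave 1.145, 0.179 and 0.114 against 0.339, 1 and 2.84, a difference of -1.79 (SE 0.983). On replicates 2 and 3 it was far lower in double-positive cells and on replicate 1 it was higher, and without both replicate 1 arrays it was at -3.56. Another probe set, listed under a Kcnj3 synonym and so outside the rule, was at 1.51 (SE 0.995, flag score 2). Of 8 channel genes with several probe sets, Kcnj3 was the 1 whose probe sets without overlap pointed both ways, a state found in 18 of the 5170 such genes in the table (0.348%).

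**Figure D2:**
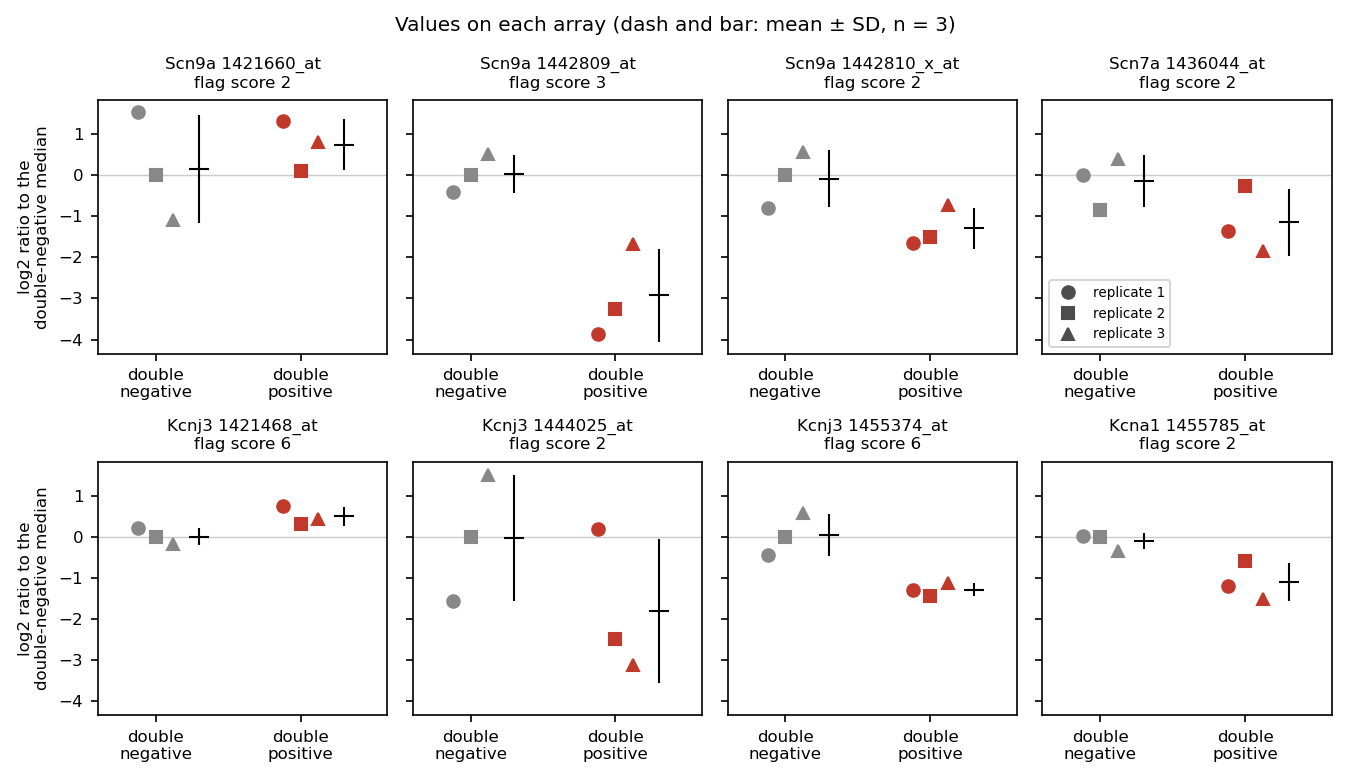
Log2 ratio on each array for 8 probe sets of Scn9a, Scn7a, Kcnj3 and Kcna1, with the symbol giving the replicate and the dash and bar the mean and SD of 3 arrays. Kcnj3 1455374_at and Kcnj3 1421468_at each separate the groups, in opposite directions.

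The other inward rectifiers were higher in the mean. Kcnj6, another G-protein-gated subunit, gave 1.062, 1.225 and 1.38 against 1, 0.585 and 1.129. It was higher in 3 of 3 pairs, by 0.48 (SE 0.365, adjusted p = 1 by limma), with a flag score of 6. Kcnj15, the next gene to Kcnj6 in the RefSeq order, was at 0.42 (SE 0.409, flag score 4). It read 2.223 on double-negative replicate 1, and without that array the difference was 0.81.

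Tandem-pore potassium channels, which carry background current at rest, differed between replicates more than between groups. Kcnk1 was low on both replicate 1 arrays in both of its probe sets, at 0.355 and 0.329 in double-positive and 0.216 and 0.427 in double-negative cells, against 0.805 to 1.11 on the other arrays. The group differences were 0.11 (SE 0.682) and -0.29 (SE 0.539). Kcnk6 followed the same course, with 0.544 and 0.547 on the replicate 1 arrays and 1 to 1.284 on the others, and a difference of 0.12 (SE 0.473). Kcnk2, a channel opened by stretch, was at 1.01 (SE 0.801, flag score 3), and it was -0.01 without double-negative replicate 1, which read 0.15. Kcnk5 was at -0.02 (SE 0.318).

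Probe sets of the same channel gene often disagreed. All probe sets of a gene pointed one way in 3 of the 8 genes with several (37.5%), namely Kcna1, Kcnq5 and Kcns2, against 2931 of 5170 genes in the table (56.7%). Kcnj3, Kcnk1, Kcnma1, Kcnn2 and Scn9a had members on both sides of 0. The gap between the highest and the lowest difference of a gene had a median of 0.72 on the log2 scale, against 0.38 over those 5170, and was widest for Scn9a (3.55) and Kcnj3 (2.28). With 8 genes these shares are a description. Which part of the transcript each probe set reads was not analysed here.

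**Figure D3:**
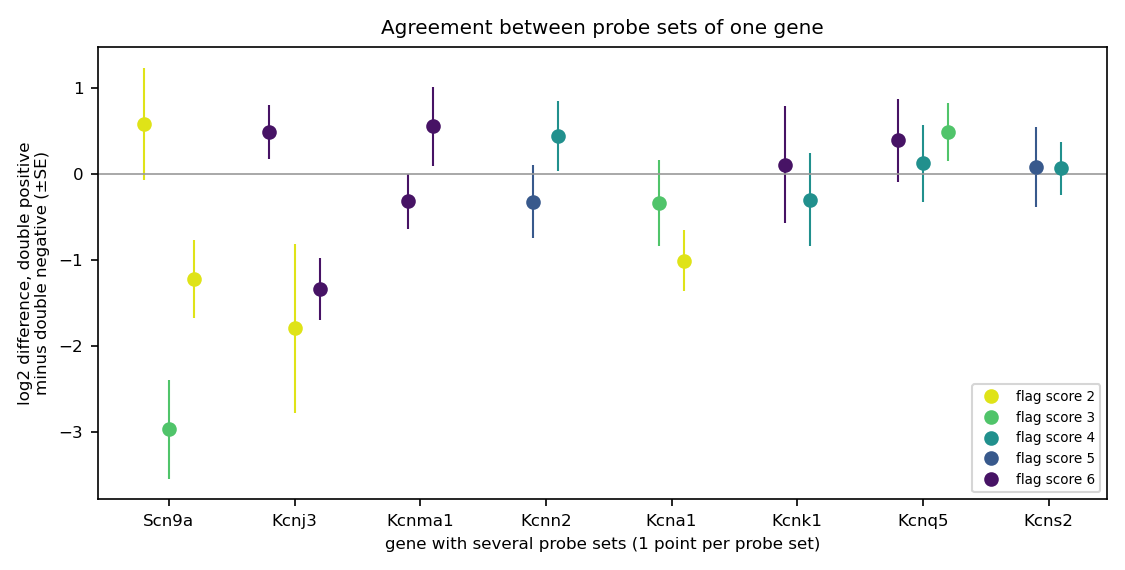
Log2 difference with 1 SE either side for every probe set of the 8 channel genes that have several, ordered by the gap within the gene and coloured by flag score. Scn9a and Kcnj3 span 0 with the widest gaps, while the Kcns2 and Kcnq5 points lie together.

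Channel probe sets had lower flag scores than others. A flag score of 6 was held by 12 of 42 (28.6%), against 62.8% of all probe sets tested, and a score of 2 or 3 by 17. Differences were larger at low scores: the median size was 0.795 on the log2 scale for the 8 channel probe sets at a score of 2 and 0.74 for the 9 at a score of 3, against 0.296, 0.0886 and 0.356 at scores of 4, 5 and 6. Over all probe sets the median size ran from 0.438 at a score of 2 through 0.4 at 3 to 0.248 at 6. The channel medians were also lower at low scores, at -0.33 for scores of 2 or 3 and 0.28 for a score of 6, against -0.11 and 0.04 over all. Of the 5 channel probe sets at an unadjusted p under 0.05, 1 had a score of 6, Kcnj3 1455374_at. The part of weak detection in the size of the differences was not tested.

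**Figure D4:**
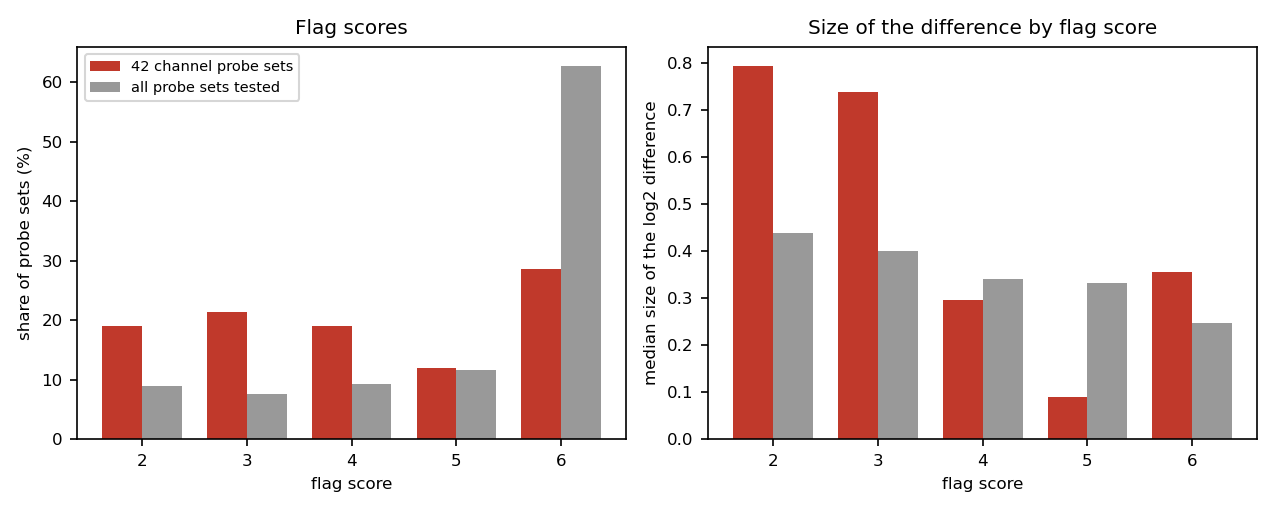
Left, share of probe sets at each flag score for the 42 channel probe sets and the 22526 probe sets tested, in percent. Right, median size of the log2 difference at each score, largest for the channels at scores of 2 and 3.

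Of 23 channel genes known from the heart, such as those of the pacemaker, L-type, sodium and repolarising currents, 5 had probe sets among the members: Cacna1d, Cacna2d1, Cacnb2, Kcnd3 and Kcnj3. Their 7 probe sets had a median difference of -0.16, and 1 of them, Kcnj3 1455374_at, was lower at an unadjusted p under 0.05, as were 3.49% of all probe sets. Proteins that bind or regulate these channels had 27 probe sets of 14 genes, with a median of -0.38, 0 past the adjusted threshold and 3 at an unadjusted p under 0.05 (4.87% of all), 1 higher (1.38% of all) and 2 lower (3.49% of all). The higher one was Gem, a small GTPase that holds calcium channels from the surface, at 2.18 (SE 0.569, adjusted p = 0.664 by limma). It gave 3.345, 4.168 and 4.675 against 0.368, 1.891 and 1, with no overlap between groups and a flag score of 5. Lower were Abcc9, a regulatory subunit of ATP-sensitive potassium channels, at -1.29 (SE 0.388, flag score 3), and 1 of 2 probe sets of Nedd4l. Nedd4l is a ubiquitin ligase that removes sodium channels, and this probe set was at -1.53 (SE 0.641, flag score 2). Its differences by replicate number were -3.64, -0.88 and -0.08 for replicates 1 to 3. The other Nedd4l probe set was at -1.18 (SE 0.622, flag score 6). Rest, which silences neuronal channel genes, was at -0.49 (SE 0.512) and -0.67 (SE 0.689). Other ion channels and pumps, 72 probe sets of 32 genes, had a median of -0.04, with 0 past the adjusted threshold and 1 lower at an unadjusted p under 0.05.

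Markers of cell types the sorted groups could hold were read beside the channels, against the shares of all probe sets at an unadjusted p under 0.05, 1.38% higher and 3.49% lower. Of 9 neural markers 2 had probe sets, Nes and Map2, and their median log2 ratio was -1.11 to 0.06 on double-positive and -1.07 to 0.17 on double-negative arrays. Of 10 cardiomyocyte markers 4 had probe sets, with medians of -0.06 to 0.53 and -0.27 to 0.12, with 1 probe set higher and 2 lower at an unadjusted p under 0.05. Pluripotent markers (7 probe sets of 6 genes) were lower, with medians of -1.73 to -0.64 on double-positive and -0.47 to 0.29 on double-negative arrays and 4 probe sets lower at an unadjusted p under 0.05. Cardiac mesoderm markers had 5 of 11 probe sets higher and endothelial markers, which include the sort gene Kdr, 3 of 4, with median differences of 1.01 and 1.58. Blood markers had 2 of 10 lower (median -2.11), extraembryonic endoderm markers 2 of 11 higher (median -0.10) and smooth muscle markers 0 of 3 (median 0.31). The blood medians differed widely between replicates and overlapped, at 0.395, -1.66 and -2.17 on double-positive replicates 1 to 3. On double-negative replicates 1 to 3 they were 2.26, 0 and -1.07. None of these marker probe sets passed the adjusted threshold in limma. The part of any of these cell types in the channel values was not tested.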

How the data were processed

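Total RNA was labelled as cRNA and hybridised to Affymetrix mouse arrays, 1 per sample, per the labels' protocols. Deposited values are linear ratios (45101 probe sets), and in 100% of them the double-negative median equals 1. How probes were summarised, corrected and scaled is not given in the sources used here. Brightness cannot be read back from ratios, and 3 arrays per group set the precision. The authors' comparison table gives, per the file headers, a fold change (a ratio), a p-value and a flag pass value (a score) for 22584 probe sets. Its fold equals the ratio of geometric group means, double positive over double negative, for 100% within 1%.

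Ratios were taken to log2 without pseudocount and 22526 non-control probe sets entered a limma fit (version 3.58.1, R 4.3.3, lmFit, eBayes, two-sided, Benjamini-Hochberg, threshold 0.05). Every probe set stood for itself. Names of other genes were updated through RefSeq (GRCm38.p6); all 31 channel names are current symbols. Named were the sort genes, up to 6 channel probe sets each way without overlap, those at an unadjusted p under 0.05, the largest difference per role at flag score 6, the 23 cardiac channel genes and genes whose probe sets point both ways; the other members were named after their values were seen. Members, lists and tests were chosen with earlier results of these data known. Fits were tested on simulated data with independent noise on each array and no replicate effect. That setting lacks the shifts between arrays seen here, so it checks the code only. The exact permutation test of 3 against 3 arrays cannot go below p = 0.1.

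Same-numbered arrays deviated together from their group means (correlations of 0.487, 0.34 and 0.206 over all probe sets for replicates 1, 2 and 3), so the numbers from the labels were taken to pair the samples and a replicate block was run as an alternative. Arrays of replicates 2 and 3 correlated across numbers as well (0.215 and 0.205), about as much as the replicate 3 arrays did with each other (0.206). The labels do not say that the numbers pair samples, so counts of pairs are a description. Some items are not reported here by name, and 2 channel probe sets are not drawn among the differences by role.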

Additional observations from a re-analysis of the deposited data

How the results depend on the processing

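The count of 0 channel probe sets past the adjusted threshold held in every alternative run except array weights, which gave 2 of 42, against 187 of all 22526 (0.83%), both of Kcnj3 (1455374_at at -1.50 and 1444025_at at -3.74). Those weights ran from 0.182 for double-negative replicate 1 to 6.65 for double-positive replicate 3, and they also carried Cxcr4 (2.32) and Kdr (2.95) past it. The count at an unadjusted p under 0.05, 5 as reported (4.87% of all probe sets), was 7 with the replicate block (12.3% of all). It was 15 with array weights (14.7% of all), of which 8 were higher and 7 lower. Without both replicate 1 arrays it was 8 (9.31% of all), 3 of them higher. A trend and robust variance model gave 2 (3.23% of all). At a flag score of 4 or more there were 2 (4.23% of those tested) and at 6 there was 1 (3.56%). The block at a score of 6, a setting added after the data were seen, gave 3 (15.1%), 2 of them higher. Taking 1 probe set per gene gave 2 (5.09% of all genes), and the mean over a gene's probe sets gave 2 (5.7%). With single arrays left out the count was 3 to 9 (2.97 to 6.76% of all). The 9 came without double-negative replicate 1 (5.87%), 3 of them higher, and the 3 without double-negative replicate 2 (4.15%) or 3 (6.76%). The median difference went from 0.08 to 0.28 at a flag score of 6, with or without the block, and was -0.04 to 0.14 with single arrays left out.

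Groups without overlap numbered 5 of 42 (9.99% of all probe sets). The count was 7 of 42 with array medians centred. It was 2 of the 25 channel probe sets at a flag score of 4 or more. At a score of 6 it was 2 of 12, with or without the block. The share of all probe sets in these settings is not given here, so these counts are not read as a change. With single arrays left out the count was 8 to 14 (14.4 to 26.1% of all probe sets). Without both replicate 1 arrays it was 21, where fewer values have to separate (42.7% of all probe sets then do). Genes whose probe sets all pointed one way, 3 as reported, numbered 0 of 2 at a flag score of 6, with or without the block, and 2 to 5 with single arrays left out. Of the 27 probe sets of partners and 72 of other channels and pumps, 4 were at an unadjusted p under 0.05 (4.87% of all probe sets). That count became 16 with the block (12.3% of all), 10 with array medians centred (6.24%) and 21 with array weights (14.7%). At a flag score of 4 or more it was 2 (4.23% of those tested), at 6 also 2 (3.56%), and at 6 with the block 18 (15.1%). Without both replicate 1 arrays it was 15 (9.31% of all), and with single arrays left out 3 to 9 (2.97 to 6.76%).

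With single arrays left out, 17 of the 42 channel probe sets changed sign, Scn4b and Kcnk2 among them. Cacna1d was at 0.294 with array weights, 0.0967 without both replicate 1 arrays and -0.387 to 0.0921 with single arrays left out. Cacna2d1 was at 0.169, 0.131 and -0.589 to 0.42 in the same settings. With single arrays left out, Kcnk6 was at -0.218 to 0.524 and Kcnq5 1445837_at at -0.0415 to 0.722. Over all probe sets tested, beside Scn4a and Kcnn3 and the count over the lists, the replicate block changed no other call among the channels and sort genes. At a flag score of 6 the block also brought Kcnj3 1421468_at, the higher one, to an unadjusted p under 0.05 (0.491, SE 0.182, adjusted p = 0.301 by limma). Brightness cannot be read from ratios. A low flag score, if it counts arrays with detection as read here, is the one sign of weak detection available.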
